A study of Eragrostis tef with 16 samples.

Results

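The data described here are the response of tef (Eragrostis tef) roots to long-term Ca2+ deficiency, measured by RNA-seq across all genes. The libraries were chosen by their labels, as 4 of roots grown at low Ca2+ (LCR, named S1 to S4) and 4 of roots grown at control Ca2+ (ConR, named S9 to S12), which are 8 of the 16 libraries of the study. Plants of a single accession, selected by the study for the high Ca of its seeds, grew in hydroponic solution with 0.01 mM Ca2+ for LCR or 1 mM Ca2+ for ConR, for about a month. The other 8 libraries are of shoots of such plants, at low (LCS) and control (ConS) Ca2+, and entered the same statistical fit. No genotype, allele or other agent is given that would differ between the groups. The labels state 4 replicates for each treatment, and the study mentions a pair of independent experiments without naming which library came from which, so that the p-values measure the spread between these libraries.

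Calcium is taken up by roots from the solution around them and serves the plant both as a structural part of cell walls and membranes and as a signal in the cytosol. Cytosolic Ca2+ is held very low, so that channels which open for a short time let it flow in along a steep gradient, and ATPases and exchangers then pump it out of the cell or into the vacuole and other stores. Calcium-binding proteins and Ca2+-dependent protein kinases (CDPKs) read these short rises. Roots also take up iron, manganese and other metals, through carriers of families such as NRAMP, yellow stripe-like (YSL) and oligopeptide transporters (OPT).

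Roots at low Ca2+ differed from control roots in 3.23% of the genes tested, with more genes higher than lower, and other tools or libraries gave from 427 to 10978 genes in place of 1832. Among genes with names, the low Ca2+ roots had less RNA of the Ca2+ pump gene CaTA5, of the kinase genes CDPK12 and CDPK13, of the calcium-binding genes CBP11 and CBP12 and of the iron carrier gene YSL16, and more RNA of the channel gene GLR2.8. The called genes were mostly of medium or high level. Over the genes called without them, LCR S3 and ConR S11 each lay between the other libraries of LCR and ConR. By distance over all expressed genes, ConR S11 was close to neither group.

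The files gave the number of reads counted on each of 68255 genes, as whole numbers without normalization. The total count was 6276818, 9735621, 10166944 and 8888416 reads in LCR S1 to S4, against 12484020, 17659238, 14224842 and 11587068 reads in ConR S9 to S12. Every LCR library was shallower than every ConR library, with p = 0.0286 in a two-sided exact permutation test, which is as low as 4 libraries against 4 can go. The same test was made for 12 measures of the libraries, and none had a Benjamini-Hochberg adjusted value below 0.0686. Depth and Ca2+ therefore cannot be told apart by design, and a fit on libraries thinned to equal depth is given beside the main counts. Levels of a gene are given in CPM, its count scaled to a fixed library size, on totals adjusted by the TMM method. They compare libraries for a given gene and not one gene with another, since they are not divided by gene length.

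Gene names were used only for the genes that the study names by identifier, since no other pairing of names with identifiers was used here, so root marker genes were not checked by name. As a description of the libraries in place of such markers, 383 genes with at least 100 CPM in ConS and at least 100-fold more in ConS than in ConR were summed. Their sum was 1847, 1884, 1501 and 1649 CPM in LCR S1 to S4 and 1158, 1315, 1210 and 1445 CPM in ConR S9 to S12, against a mean over shoot libraries of 244400 CPM (LCS) and 352300 CPM (ConS). The choice of the genes by their low level in ConR fixes that the ConR sums are low and favours higher sums in LCR, so the sums of LCR and ConR are given without a test. The LCR libraries, which the choice did not use, had these genes at a small share of their level in LCS. Of the 383 genes, 10 (2.61%) were among those called below, close to the 3.23% of all genes tested. In bulk roots, fewer cells of a type and less RNA per cell cannot be told apart.

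Before the genes, the libraries were compared with each other. The BCV, the biological coefficient of variation between replicates, was 17.5% in LCR and 30.4% in ConR when each group was fitted alone. In a principal component analysis of the 36774 genes with a root mean of at least 1 CPM, the first component held 48.9% of the variance and the second 20.6%. On the first component, LCR S1 to S4 scored -79.58, -65.0, -11.5 and -49.41, against 44.72, 64.02, -8.44 and 105.2 for ConR S9 to S12. LCR S3 and ConR S11 thus lay next to each other, with the other 6 libraries on either side. ConR S11 alone lay far out on the second component, at -102.1, where the other 7 libraries ranged from -7.32 to 29.5.

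**Figure D1:**
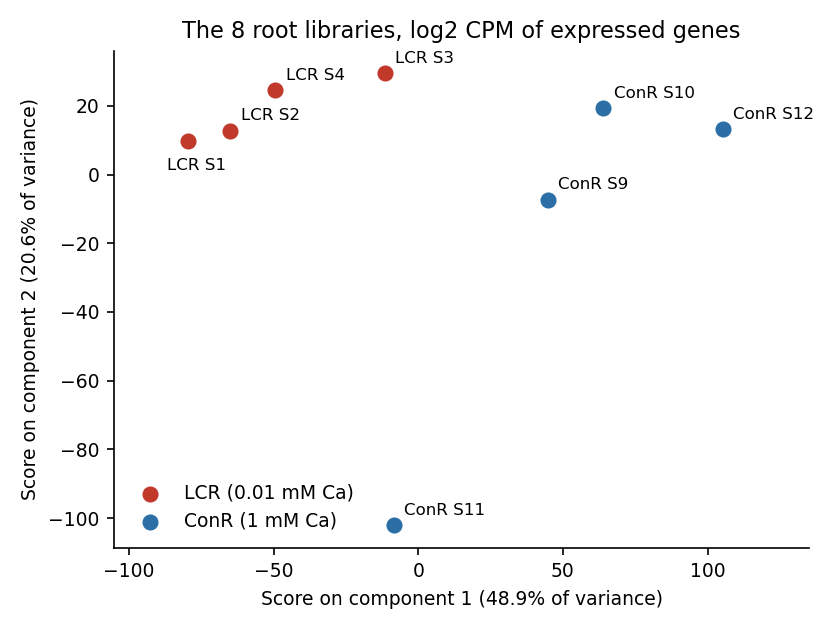
Scores of the 8 root libraries on the first (48.9% of the variance) and second (20.6%) principal components of log2 CPM, with 1 point per library and a colour per group. LCR S3 (-11.5) and ConR S11 (-8.44) are neighbours on the first component, and ConR S11 (-102.1) is apart from all others on the second.

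The distance between libraries was taken as the root mean square of their log2 differences over these genes. Pairs within LCR were 0.401 to 0.609 apart, and pairs within ConR without S11 were 0.372 to 0.613 apart. ConR S11 was 0.667 to 0.881 from the other ConR libraries and 0.722 to 0.767 from the LCR libraries, so it was close to neither group. LCR S3 was 0.423 to 0.609 from the other LCR libraries and 0.582 to 0.723 from ConR S9, S10 and S12. ConR S11 also had 106 genes at least 4-fold above, and 49 genes at least 4-fold below, all other ConR libraries, where no other root library but ConR S12 (16 above and 18 below) had more than 5. No label separates ConR S11 or LCR S3 from the other libraries of their groups.

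Between LCR and ConR, 1832 of 56746 genes tested (3.23%) passed the threshold, a Benjamini-Hochberg adjusted p below 0.05 in the quasi-likelihood F-test of edgeR. Of these, 1077 genes (1.9% of those tested) rose in LCR and 755 genes (1.33%) fell. An unadjusted p below 0.05 was reached by 11724 genes (20.7%). The count was 1116 after thinning to equal depth, 4026 in a fit of the 8 root libraries alone, 2976 by limma-voom and 4636 by DESeq2, the tool of the study. The study itself reported fewer genes for LCR against ConR than DESeq2 gave here, over a smaller set of genes kept by its filter. Among fits that left out 1 library, those lacking S1, S2 or S4 of LCR called 515, 436 and 427 genes, and those lacking S9, S10 or S12 of ConR called 724, 687 and 566. The fit lacking ConR S11 called 3565 genes, 1648 of them among the 1832. Without LCR S3, 1827 genes were called and 1440 of them were among the 1832, and without both libraries 4354 genes were called.

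Rises outnumbered falls, at 58.8% of the genes called. The share was 71.3% when the size factors of DESeq2 replaced TMM scaling within edgeR and 71.0% after thinning, and under no setting tried was it below 54.1%. The log2 fold change of LCR over ConR (log2FC) had a median over all genes tested of 0.03 with TMM scaling and 0.09 with the size factors of DESeq2. The rises were also larger in the middle of their range, with a median log2FC of 1.31 (quartiles 1.05 and 1.74) for genes that rose, against -0.98 (quartiles -1.61 and -0.73) for genes that fell. Of 1219 genes called at an absolute value of 1 or more, 854 rose and 365 fell (70.1% rose). Among the largest changes the balance turned, with 46 of 99 genes rising at an absolute value of 3 or more and 14 of 43 rising at 4 or more. These largest changes were of weakly expressed genes, with a median root level of 0.889 CPM among the 99 and 0.555 CPM among the 43, compared with 11.7 CPM among all 1832.

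The median level of the genes that rose was 14.2 CPM in LCR and 5.37 CPM in ConR, while the genes that fell had a median of 9.65 CPM in LCR and 19.5 CPM in ConR. Summed over the 1077 genes, the level was 44007, 42221, 30560 and 39763 CPM in LCR S1 to S4 and 18580, 17459, 20161 and 13708 CPM in ConR S9 to S12. Summed over the 755 genes, it was 16321, 16289, 16029 and 15473 CPM in LCR S1 to S4 and 33089, 32546, 34750 and 34187 CPM in ConR S9 to S12. These medians and sums describe genes chosen by the same contrast, and the sums show LCR S3 and ConR S11 closest to the other group for the genes that rose but not for the sum of those that fell. Called genes wholly without reads in a group were rare, with 8 at 0 reads in all LCR libraries and 9 at 0 reads in all ConR libraries. Over the 56746 genes tested, these numbers were 1689 and 1483.

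Complete separation of the libraries was far more frequent than a call. For 8730 genes (15.4% of those tested), the 4 LCR values did not overlap the 4 ConR values, with LCR above for 4660 genes (8.21%) and below for 4070 genes (7.17%). Of the 1832 genes called, 1690 had no overlap, which is 1009 of the 1077 that rose and 681 of the 755 that fell. The other 7040 separated genes were not called, and they differed by less, with a median absolute log2FC of 0.65 and a median adjusted p of 0.162, against a median absolute log2FC of 1.22 for the separated genes that were called. Their median root level, 8.93 CPM, was close to the 11.3 CPM of the separated genes that were called.

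A further 142 genes were called although their libraries overlapped. Of these, 91 had no overlap once LCR S3 was left out, and all but 33 had none once ConR S11 was left out, so that some genes counted for both. Over all genes tested, 15799 had no overlap without ConR S11 and 13882 without LCR S3, while leaving out any other root library gave 10164 to 10658. With fewer libraries separation is reached more easily, so the comparison is between the omissions and not with the 8730. Leaving out both libraries gave 21711 genes.

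How far each library followed the response of the others was measured on genes called without it. On a scale where 0 is the mean of the remaining ConR libraries and 1 the mean of the remaining LCR libraries, in log2(CPM + 0.5), the median position over these genes was 0.976 for LCR S1, 1.00 for LCR S2 and 1.01 for LCR S4. LCR S3 was at 0.618, with 67.8% of its 1827 genes on the LCR side of the midpoint. Among the controls, ConR S9 was at 0.153, ConR S10 at 0.18 and ConR S12 at -0.0614, each with 88.7% to 92.1% of the genes on the ConR side. ConR S11 was at 0.559 (quartiles 0.228 and 0.89), and only 45.5% of its 3565 genes lay on the ConR side. The position of ConR S11 was alike for genes that rose (0.513) and genes that fell (0.612). Each library was placed on the genes called without it, so these sets differ in number and in membership. Of the 427 genes for LCR S4, 426 were among the 1832 of the main call, against 1440 of 1827 for LCR S3 and 1648 of 3565 for ConR S11. The positions are thus not on like sets of genes.

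**Figure D2:**
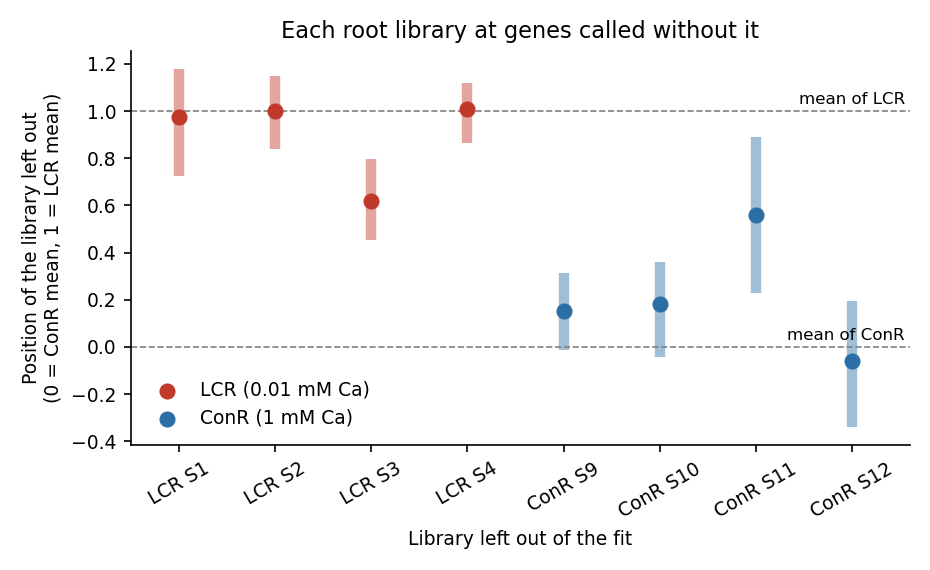
Position of each root library between the mean of the other ConR libraries (0) and the mean of the other LCR libraries (1), over genes called in a fit without that library, with the median as a point and the quartiles as a bar. 3 LCR libraries sit near 1 and LCR S3 at 0.618, while 3 ConR libraries sit between -0.0614 and 0.18 and ConR S11 at 0.559.

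The share of genes called went with expression level. Among genes with a root mean under 0.1 CPM, 4 of 9048 were called (0.0442%), all of them higher in LCR. The count was 123 of 10924 (1.13%) at 0.1 to 1 CPM, 695 of 20037 (3.47%) at 1 to 10 CPM, 923 of 15477 (5.96%) at 10 to 100 CPM and 87 of 1260 (6.9%) at 100 CPM or more. Taken at 1 CPM, 1705 of 36774 genes above it (4.64%) and 127 of 19972 genes under it (0.636%) were called. Without overlap were 2.0% of genes under 0.1 CPM and 28.1% of those at 100 CPM or more, so separation became more frequent with level as well.

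The size a change needed to pass fell as the level rose, up to 100 CPM. The smallest absolute log2FC called was 4.09 under 0.1 CPM, 1.37 at 0.1 to 1 CPM, 0.60 at 1 to 10 CPM, 0.46 at 10 to 100 CPM and 0.53 at 100 CPM or more. The median standard error of the log2FC was 1.23, 0.70, 0.32, 0.19 and 0.23 in these 5 bins in the same order. The BCV of single genes had its lowest median, 19.9%, at 10 to 100 CPM, with 24.0% at 100 CPM or more and 52.7% under 0.1 CPM.

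**Figure D3:**
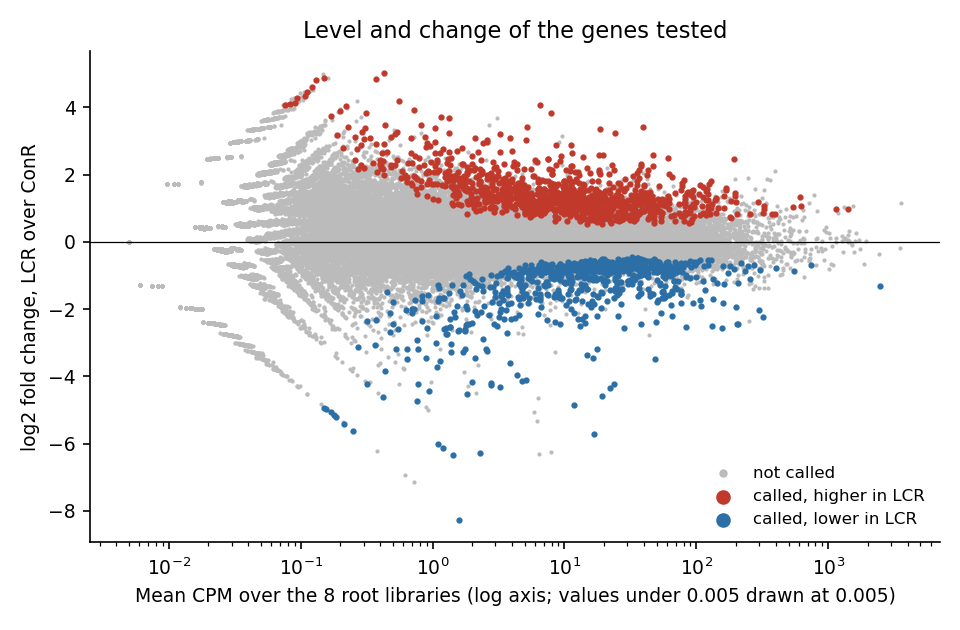
Log2FC of LCR over ConR against the mean level in the 8 root libraries in CPM (log axis), with 1 point per gene tested and the 1077 genes that rose and 755 that fell in colour. Called genes of low level have large fold changes, and the smallest change called is 0.46 at 10 to 100 CPM.

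The direction of the calls also went with the level. Of the genes called, 84 rose and 39 fell at 0.1 to 1 CPM, 452 rose and 243 fell at 1 to 10 CPM, 487 rose and 436 fell at 10 to 100 CPM, and 50 rose and 37 fell at 100 CPM or more. The separated genes showed it over a larger number. LCR was above ConR for 771 and below for 242 of them at 0.1 to 1 CPM, above for 2001 and below for 1284 at 1 to 10 CPM, and above for 1562 and below for 2335 at 10 to 100 CPM. At 100 CPM or more, 200 were above and 154 below. The median log2FC over all genes tested was 0.33 at 0.1 to 1 CPM, 0.02 at 1 to 10 CPM, -0.10 at 10 to 100 CPM and -0.01 at 100 CPM or more. These bins are given for TMM scaling only. Over genes at 1 CPM or more, the median was -0.037 with TMM scaling, 0.018 with the size factors of DESeq2 and 0.015 after thinning. The balance of signs in a bin therefore depends in part on the scaling.

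**Figure D4:**
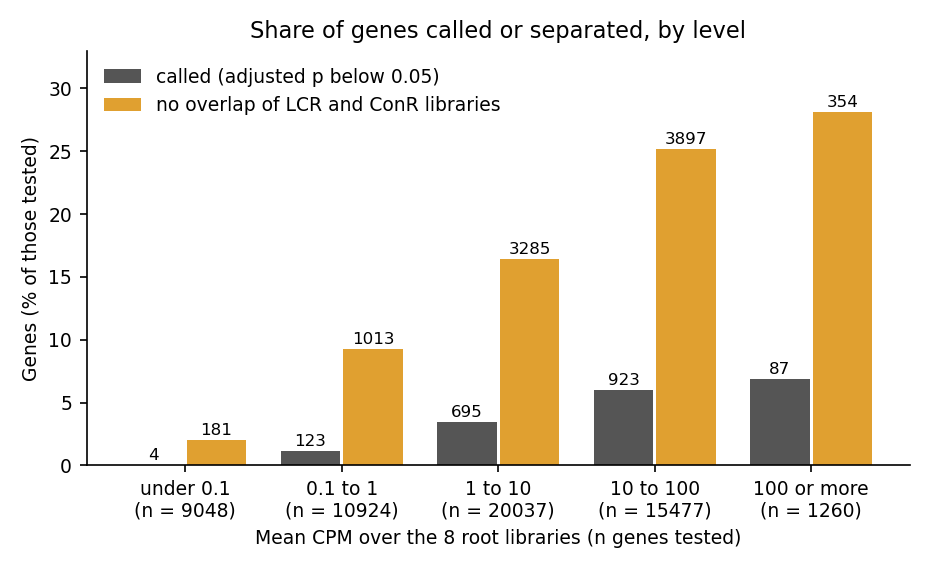
Percent of the genes tested that were called (dark bars) and that had no overlap of LCR and ConR libraries (orange bars), in 5 bins of the mean level in the 8 root libraries, with the number of genes above each bar. The called share goes from 0.0442% under 0.1 CPM to 6.9% at 100 CPM or more, and the share without overlap from 2.0% to 28.1%.

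Weakly expressed genes as a whole held a larger share of the reads in every LCR library than in any ConR library. Genes of 0.1 to 1 CPM held 0.564% to 0.595% of the reads in LCR and 0.453% to 0.535% in ConR, and genes under 0.1 CPM held 0.0450% to 0.0587% in LCR and 0.0375% to 0.0428% in ConR (p = 0.0286 for each, two-sided exact permutation test). The exact permutation p was 0.0857 for genes of 1 to 10 CPM, 0.2 for 10 to 100 CPM and 0.457 for 100 CPM or more. The number of genes with a read was 48896 to 51909 in LCR and 50196 to 52334 in ConR (exact permutation p = 0.714). After thinning all libraries to 6276818 reads it was 48896, 49764, 49187 and 49742 in LCR S1 to S4 and 47910, 47676, 48086 and 47437 in ConR S9 to S12 (exact permutation p = 0.0286). More genes thus had a read in each LCR library than in each ConR library at equal depth. The share of reads held by the top 100 genes of a library did not separate the groups (exact permutation p = 0.857).

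The genes named by the study, here called listed genes, cover calcium transport, calcium signalling and metal transport. The study chose them on these samples, so they are no independent evidence of a direction or of a larger share of calls. Of them, 4 rose, 13 fell and 92 did not pass the test, so that 15.6% were called. The share was 3.23% of all genes tested and 4.64% of those at 1 CPM or more, where most listed genes lay. Of the listed genes, 43 had no overlap of libraries, 14 with LCR above and 29 with LCR below. Over all genes tested 15.4% had none, 8.21% with LCR above and 7.17% with LCR below. At 1 CPM or more, 20.5% had none. The median log2FC of the listed genes was -0.14, against 0.03 over all genes tested and -0.04 over those at 1 CPM or more. With the size factors of DESeq2 in edgeR, 4 rose and 11 fell. The number called was 11 in the fit lacking LCR S1, 8 in those lacking LCR S2 or S4, 10 in those lacking ConR S9 or S12, 9 in that lacking ConR S10, and 11 after thinning.

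**Figure D5:**
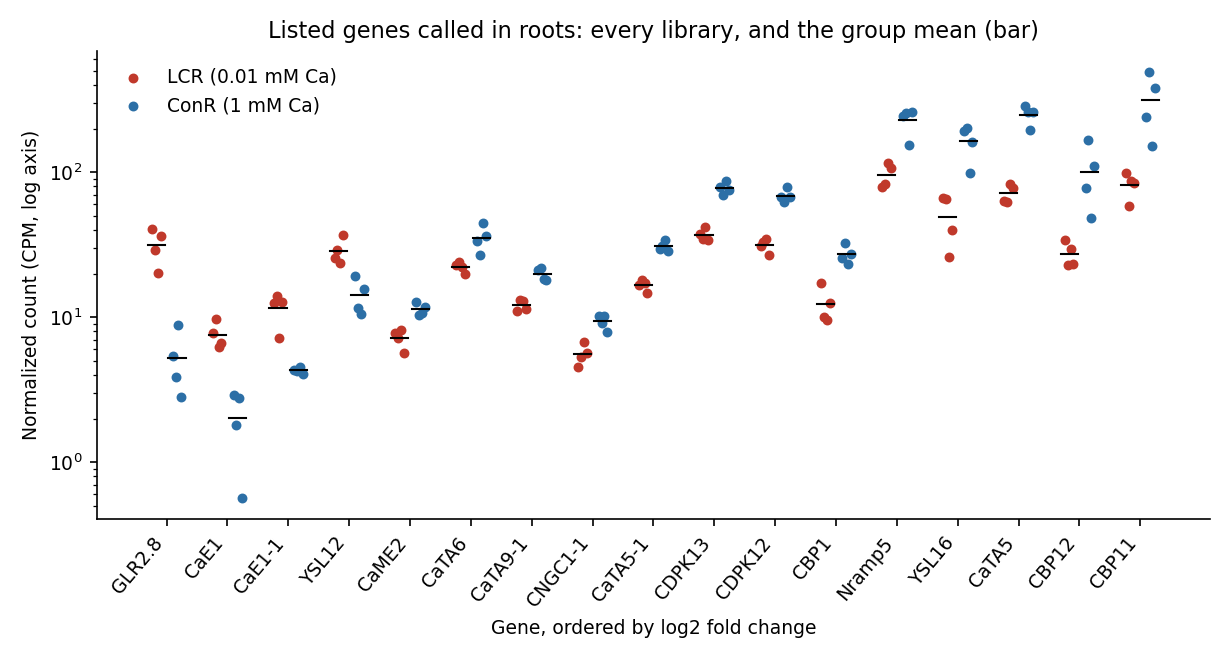
Normalized count in CPM (log axis) of the 17 listed genes that passed the test, with 1 point per library, LCR left of ConR, a bar at the group mean, and the genes ordered by log2FC. LCR is above ConR for GLR2.8, CaE1, CaE1-1 and YSL12 and below it for the other 13 genes, and the groups overlap for none of them.

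Calcium-transporting ATPases are the pumps that carry Ca2+ out of the cytosol against its gradient. Of 14 listed, 4 fell, none rose, and 7 had LCR below ConR without overlap. Over all genes tested, 1.33% fell and 7.17% had LCR below without overlap. At 10 to 100 CPM, where most of these pump genes lay, 436 of 15477 genes fell and 2335 had LCR below without overlap. The median log2FC over all genes of that level was -0.10. The sign was negative for 13 of the 14, or 12 of the 14 with the size factors of DESeq2, against 26785 of the 56746 genes tested. CaTA5 (Et_1A_007426) had 63.0, 62.2, 82.9 and 77.3 CPM in LCR S1 to S4 and 284, 259, 195 and 259 CPM in ConR S9 to S12. No LCR library came near the lowest control, ConR S11, and the log2FC was -1.80 (standard error of the fit, SE, 0.25, adjusted p = 0.00158). CaTA5-1 (Et_8A_057406) had 16.7, 17.96, 17.3 and 14.7 CPM in LCR S1 to S4 and 29.7, 30.7, 34.2 and 28.6 CPM in ConR S9 to S12. These groups were narrow and apart, with a log2FC of -0.89 (SE 0.14, adjusted p = 0.00289). Both genes were called under all 21 alternatives that kept the threshold of the main fit, with an adjusted p of at most 0.0187 when 1 library was left out.

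A pair of smaller falls among the pumps was less secure. CaTA9-1 (Et_6A_046490) had 11.03, 13.1, 13.02 and 11.4 CPM in LCR S1 to S4 and 21.1, 21.7, 18.2 and 18.01 CPM in ConR S9 to S12 (log2FC -0.70, SE 0.18, adjusted p = 0.0409). CaTA6 (Et_9A_062174) had 22.8, 24.1, 22.1 and 19.9 CPM in LCR S1 to S4 and 33.3, 26.7, 44.6 and 36.4 CPM in ConR S9 to S12 (log2FC -0.67, SE 0.17, adjusted p = 0.041). Neither gene overlapped between the groups, although ConR S10 was close to LCR for CaTA6. The adjusted p of CaTA9-1 passed 0.05 without any one of LCR S1 to S4 or ConR S9, S10 or S12 (0.0533 to 0.121), with DESeq2's size factors (0.0559) and after thinning (0.0881). That of CaTA6 passed 0.05 without any one of LCR S1 to S4 or ConR S9, S11 or S12 (0.0616 to 0.126), without LCR S3 and ConR S11 together (0.0837), with DESeq2's size factors (0.0577) and after thinning (0.116). The other 10 pump genes had log2FCs of -0.70 to 0.26 and adjusted p-values of 0.122 to 0.967.

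Cation/calcium exchangers move Ca2+ out of the cytosol in return for other ions. The group as listed here also holds CaME1, CaME2 and CaME3, which the study labels as mitochondrial proton/calcium exchangers and which that description does not cover. Of 9 exchangers listed, 2 rose and 1 fell, set against 1.9% and 1.33% of all genes tested. CaE1 (Et_10A_001931) had 7.78, 9.64, 6.24 and 6.59 CPM in LCR S1 to S4 and 2.92, 1.81, 2.76 and 0.567 CPM in ConR S9 to S12. The lowest LCR library was above the highest ConR library, with a log2FC of 1.90 (SE 0.47, adjusted p = 0.0372). CaE1-1 (Et_1A_006089) had 12.6, 13.9, 7.17 and 12.8 CPM in LCR S1 to S4 and 4.32, 4.24, 4.56 and 4.04 CPM in ConR S9 to S12. Its controls were nearly equal and LCR S3 was the lowest of the LCR libraries (log2FC 1.43, SE 0.33, adjusted p = 0.028). CaME2 (Et_1B_014429) had 7.78, 7.19, 8.11 and 5.65 CPM in LCR S1 to S4 and 12.8, 10.3, 10.6 and 11.7 CPM in ConR S9 to S12, and fell without overlap (log2FC -0.66, SE 0.16, adjusted p = 0.0354). All these calls were lost when any one of S1, S2 and S4 of LCR or S9, S10 and S12 of ConR was left out, with adjusted p-values of 0.0595 to 0.118 for CaE1, 0.0691 to 0.0965 for CaE1-1 and 0.0642 to 0.121 for CaME2, and after thinning (0.0501, 0.059 and 0.0802). The other 6 exchangers had log2FCs of -0.51 to 0.76 and adjusted p-values of 0.12 to 0.842.

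Channels let Ca2+ into the cytosol. The glutamate receptor-like channels (GLRs) are plant relatives of the glutamate receptors of animal nerve cells. Of 10 listed, 1 rose, compared with 1.9% of all genes tested, so that this share rests on a single gene. GLR2.8 (Et_2A_018316) had 40.7, 29.0, 20.1 and 36.2 CPM in LCR S1 to S4 and 5.38, 3.85, 8.77 and 2.84 CPM in ConR S9 to S12. The lowest value in LCR was that of S3 and the highest in ConR that of S11, and the groups were still apart. The log2FC was 2.59 (SE 0.43, adjusted p = 0.00396), the largest rise among the listed genes, and it was called under all 21 alternatives. The other 9 GLRs had log2FCs of -0.53 to 0.66 and adjusted p-values of 0.191 to 0.984.

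Cyclic nucleotide-gated channels (CNGCs) open on binding cyclic nucleotides and are regulated by calmodulin. Of 11 listed, CNGC1-1 alone fell, compared with 1.33% of all genes tested, so that this share too rests on a single gene. CNGC1-1 (Et_1A_007771) had 4.53, 5.35, 6.78 and 5.65 CPM in LCR S1 to S4 and 10.2, 9.12, 10.2 and 7.94 CPM in ConR S9 to S12, without overlap (log2FC -0.74, SE 0.18, adjusted p = 0.0353). Its call was lost without any one of S1, S2 and S4 of LCR or S9, S10 and S12 of ConR (adjusted p 0.0548 to 0.114) and after thinning (0.206). CNGC17 (Et_1A_006188) had 31.3, 30.5, 34.3 and 31.4 CPM in LCR S1 to S4 and 47.1, 54.5, 34.5 and 51.4 CPM in ConR S9 to S12. Here ConR S11 was only just above the highest LCR library, and the log2FC of -0.56 (SE 0.17) did not pass the test (adjusted p = 0.082) but did so without ConR S11 (adjusted p = 0.0226) and with DESeq2 (adjusted p = 0.0434). None of 7 uniporter genes passed, with log2FCs of -0.57 to 0.85 and adjusted p-values of 0.165 to 0.912. None of 4 other channel and carrier genes passed either, from -0.53 to 0.36.

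Among 18 listed calcium-binding genes, calcineurin B included, 3 fell and none rose, where 1.33% of all genes tested fell and 1.9% rose. CBP11 (Et_3A_023424) had 98.7, 58.3, 87.4 and 84.2 CPM in LCR S1 to S4 and 240, 491, 151 and 384 CPM in ConR S9 to S12. CBP12 (Et_3B_027891) had 34.1, 23.0, 29.5 and 23.3 CPM in LCR S1 to S4 and 78.4, 166, 48.3 and 110 CPM in ConR S9 to S12. Both genes ranked the 4 controls in the same order, with ConR S10 highest and ConR S11 lowest, and in neither did a control reach into LCR. The log2FC was -1.95 (SE 0.30, adjusted p = 0.00267) for CBP11 and -1.88 (SE 0.29, adjusted p = 0.00289) for CBP12, and both were called under all 21 alternatives. The identifiers place them in the A and B subgenomes of tef, an allotetraploid. Copies that are nearly identical share reads, which the counting by the study's aligner cannot assign, and how alike these copies are was not analysed here.

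CBP1 (Et_1B_010286) had 17.1, 10.1, 9.51 and 12.6 CPM in LCR S1 to S4 and 25.5, 32.4, 23.4 and 27.2 CPM in ConR S9 to S12. It fell without overlap (log2FC -1.15, SE 0.24, adjusted p = 0.0182), and the call was lost without LCR S2 (adjusted p = 0.0784), LCR S4 (0.0606) or ConR S10 (0.058). CBP2 (Et_1B_014273) had every LCR library above every ConR library, with a mean level of 5.37 CPM (LCR) and 3.06 CPM (ConR). Its log2FC of 0.80 missed the threshold (adjusted p = 0.0745) and passed it without LCR S3 (0.047) and with DESeq2 (0.0138).

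CDPKs join a calcium-binding part and a protein kinase in 1 protein, so that the kinase is switched on by Ca2+. Of 14 listed, 2 fell and none rose, where 1.33% of all genes tested fell and 1.9% rose. CDPK12 (Et_4A_032792) had 30.8, 32.9, 34.6 and 26.8 CPM in LCR S1 to S4 and 67.1, 61.8, 78.7 and 67.3 CPM in ConR S9 to S12. CDPK13 (Et_4B_036955) had 37.4, 34.8, 41.9 and 34.3 CPM in LCR S1 to S4 and 79.4, 69.2, 87.4 and 75.9 CPM in ConR S9 to S12. In both genes the highest LCR library was far below the lowest ConR library, and ConR S11, which lay towards LCR over all called genes, was here the highest of the controls. The log2FC was -1.13 (SE 0.15, adjusted p = 0.00125) for CDPK12 and -1.07 (SE 0.17, adjusted p = 0.00321) for CDPK13, under all 21 alternatives past the threshold. The other 12 CDPKs had log2FCs of -0.33 to 0.55 and adjusted p-values of 0.211 to 0.893. The 3 calcium/calmodulin-dependent kinases had log2FCs of -0.50 to -0.19, and none passed (adjusted p 0.153 to 0.427). For 2 of them every LCR library was below every ConR library, as it was for 7.17% of all genes tested.

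Of 19 listed metal transporter genes, 1 rose and 2 fell, set against 1.9% and 1.33% of all genes tested. YSL genes encode carriers of metals bound to small chelators, the best known being the maize protein that takes up iron bound to phytosiderophores. YSL16 (Et_3B_031448) had 66.5, 65.0, 26.1 and 39.9 CPM in LCR S1 to S4 and 191, 201, 98.2 and 162 CPM in ConR S9 to S12. LCR S3 was lowest in LCR and ConR S11 lowest in ConR, and the groups did not overlap (log2FC -1.72, SE 0.26, adjusted p = 0.00263, called under all 21 alternatives). YSL12 (Et_7B_055138) had 25.7, 29.0, 23.7 and 36.7 CPM in LCR S1 to S4 and 19.1, 11.6, 10.5 and 15.7 CPM in ConR S9 to S12. It rose without overlap (log2FC 1.02, SE 0.22, adjusted p = 0.0193), and the call was lost without LCR S2 (0.0605), LCR S4 (0.0776) or ConR S10 (0.0663).

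Nramp5 (Et_5A_041086) bears the name of a rice gene for a manganese uptake carrier of roots. It had 79.6, 82.6, 115 and 107 CPM in LCR S1 to S4 and 243, 255, 155 and 262 CPM in ConR S9 to S12. It fell without overlap, with ConR S11 the nearest control (log2FC -1.25, SE 0.31, adjusted p = 0.0359). This call, too, did not outlast the loss of any one of S1, S2 and S4 of LCR or S9, S10 and S12 of ConR (adjusted p 0.0827 to 0.12).

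Several metal genes varied within LCR as much as between the groups. YSL2 (Et_1A_008454) had 148, 117, 29.5 and 47.2 CPM in LCR S1 to S4 and 233, 173, 295 and 119 CPM in ConR S9 to S12. Its log2FC of -1.27 did not pass (adjusted p = 0.0668), and it passed without LCR S1 (0.0421) and with DESeq2 (0.0311). YSL9 (Et_7A_052425) had 480, 403, 129 and 197 CPM in LCR S1 to S4 and 605, 483, 879 and 393 CPM in ConR S9 to S12 (log2FC -0.96, adjusted p = 0.117). In both genes LCR S1 and S2 were high, LCR S3 and S4 low, and ConR S11 the highest of all libraries. Nramp2 (Et_4A_034655) likewise had LCR S1 and S2 above LCR S3 and S4 and its highest value in ConR S11. It had 79.9, 69.6, 31.2 and 42.9 CPM in LCR S1 to S4 and 122, 82.5, 139 and 84.1 CPM in ConR S9 to S12. Unlike YSL2 and YSL9, its groups did not overlap, although LCR S1 was close to ConR S10. Nramp2 did not pass (log2FC -0.94, adjusted p = 0.159), but did so under 3 of 21 alternatives, among them the edgeR fit of the 8 root libraries alone (adjusted p = 0.0485).

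OPT3 carries the name of an Arabidopsis gene for iron transport in the phloem. OPT3 (Et_4A_033828) had 99.9, 78.3, 29.1 and 50.3 CPM in LCR S1 to S4 and 19.3, 14.3, 79.9 and 18.01 CPM in ConR S9 to S12. ConR S11 lay within the range of LCR, far above the other controls, and the log2FC was 0.97 (SE 0.48, adjusted p = 0.263). Without ConR S11 it was 2.15 (adjusted p = 0.00909). OPT4 (Et_1B_013097) and OPT1 (Et_8A_058302) had every LCR library above every ConR library, with log2FCs of 1.21 (adjusted p = 0.0846, and 0.0107 without ConR S11) and 1.35 (adjusted p = 0.0934). DESeq2 gave OPT4 an adjusted p of 0.0302.

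The 2 largest rises and the 2 largest falls among called genes with a root mean of at least 1 CPM and no overlap were of genes without names. Et_1B_014149 rose, with 15.6, 16.7, 13.1 and 13.5 CPM in LCR S1 to S4 and 1.39, 1.51, 0.901 and 0.213 CPM in ConR S9 to S12 (log2FC 3.82, SE 0.45, adjusted p = 0.000792). Et_2B_019596 rose, with 28.2, 11.7, 5.07 and 4.61 CPM in LCR S1 to S4 and 0.0664, 0.0488, 1.86 and 0.922 CPM in ConR S9 to S12 (log2FC 4.08, SE 0.95, adjusted p = 0.0284). The libraries of the second gene were spread widely within each group, and its call was lost without any one of S1 and S2 of LCR or S9, S10 and S12 of ConR (adjusted p 0.0743 to 0.107).

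Et_8A_056874 had no read in any LCR library and 2.86, 3.76, 0.360 and 5.74 CPM in ConR S9 to S12, from 207 reads in all. Against a floor of 3 reads over the 4 LCR libraries, which is 0.0715 CPM, it was at least 43.6-fold lower in LCR (adjusted p = 0.00534). Et_1A_006885 had 1 read in LCR, in S4, and 146 reads in ConR, with 2.26, 3.07, 0.480 and 2.91 CPM in ConR S9 to S12. The ConR level was 92.3 times that in LCR, with a 95% counting interval of 16.3 to 3671 (adjusted p = 0.00271). In both genes ConR S11 was the control with the lowest level. These intervals and floors cover counting error only.

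The response of shoots in the same fit was set beside that of roots. The interaction of tissue and Ca2+, which tests whether the change in shoots differs from that in roots, was called for 3351 genes (5.91%) and for 348 of the 1832 root genes (19.0%). These root genes were chosen by the difference of LCR and ConR, which the interaction also contains. A larger share among them is therefore favoured by the choice. The 1077 genes that rose in roots had a median log2FC of 0.80 in shoots, 84.4% of them positive, and the 755 that fell had -0.39, 72.8% negative, compared with 0.11 and 54.3% positive over all genes tested. The interaction was called for CDPK12 (1.66 on the log2 scale, adjusted p = 0.000274), CDPK13 (1.48, adjusted p = 0.00152), CBP11 (2.36, adjusted p = 0.0092), CBP12 (2.58, adjusted p = 0.026) and Nramp5 (2.83, adjusted p = 0.00236). The falls of these 5 genes thus differed from their change in shoots, where the log2FC was 0.53, 0.40, 0.41, 0.70 and 1.58 in the same order. The change in shoots itself passed the test for CDPK12 (adjusted p = 0.0205) and Nramp5 (0.00711), but not for CDPK13 (0.101), CBP11 (0.504) or CBP12 (0.411). Mean levels in ConS and LCS were low for CBP11 (1.12 and 1.47 CPM), CBP12 (0.347 and 0.560 CPM) and Nramp5 (1.30 and 3.84 CPM). CaTA9-1 (-1.34, adjusted p = 0.00363) and CaTA5-1 (-0.69, adjusted p = 0.0432) also differed, with a larger negative value in shoots than in roots. For CaTA5, GLR2.8, CaE1 and YSL16 the interaction was not called (adjusted p 0.0627 to 0.854).

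Genes called in roots came from all parts of the genome, as far as the identifiers tell. By the label in the identifier, 954 of 28213 genes of the A subgenome (3.38%) and 854 of 27515 genes of the B subgenome (3.1%) were called. Between chromosome labels the share ran from 2.36% among genes labelled Un to 4.21% among those of 10A.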

How the data were processed

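RNA from roots and shoots was sequenced in 16 libraries, of which the 8 root libraries are compared here. Per the study's methods, the authors used sickle to trim reads, hisat2 to align them to a tef draft genome and htseq-count, set for strand, to assign those that mapped uniquely to genes, and the deposited counts are whole numbers without normalization. A gene was tested if 4 or more of the 16 libraries had a read for it (56746 genes). The test was the quasi-likelihood F-test of edgeR 4.0.16 under R 4.3.3, with TMM scaling and a term per group over all 16 libraries, at a Benjamini-Hochberg adjusted p below 0.05. The standard error of a log2 fold change was its size over the square root of F. Where no other tool is named, an adjusted p is from this test.

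The genes named with values are the listed genes that passed, listed genes near the threshold or with a library apart (chosen after their values were seen), and, among called genes of at least 1 CPM without overlap, the 2 largest rises and 2 largest falls. The libraries, gene lists and tests were chosen with earlier results of these data known. Single measures of a library were compared by exact permutation tests, two-sided. Principal components used log2 CPM with a prior count of 2.

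Alternatives were other scalings, other filters on low counts, thinning to 6276818 reads, the root libraries alone, DESeq2 1.42.0, limma 3.58.1 (voom, with and without library weights), other thresholds, the 100 most abundant genes left out, and libraries left out. Counts of alternatives for a single gene leave out the other thresholds. The fits were tested on simulated data. Library totals were 6276818 to 17659238 reads. Without a genome or annotation, positions and sequences of genes are not given. Mineral contents, growth and qPCR were not analysed here.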

Additional observations from a re-analysis of the deposited data

Results flagged for a closer look

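For 3 of 89 sets of 4 values, 1 library stood apart from the other 3, where chance gives about 1 in 20. OPT3 (Et_4A_033828) had 79.92 CPM in ConR S11 and 14.3 to 19.3 CPM in the other ConR libraries. Et_1A_006885 had 0.0942 CPM in LCR S4, which is 1 read, and none in the other LCR libraries. The number of genes with a read was 48896 in LCR S1, the shallowest library, and 51436 to 51909 in the other LCR libraries.

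For 9 of the genes named, the change at low Ca2+ differed between shoots and roots in the interaction test of edgeR. The log2 fold change in shoots exceeded that in roots by 2.36 for CBP11 (adjusted p = 0.0092), 2.58 for CBP12 (0.026), 1.66 for CDPK12 (0.000274), 1.48 for CDPK13 (0.00152), 2.83 for Nramp5 (0.00236), 2.11 for OPT4 (0.029) and 8.58 for Et_1A_006885 (0.00386). The value for Et_1A_006885 rests on 1 read in LCR and depends on the prior count of the fit. CBP11, CBP12 and Nramp5 had low levels in shoots, as given above. The difference was negative for CaTA9-1 (-1.34, adjusted p = 0.00363) and CaTA5-1 (-0.691, adjusted p = 0.0432), whose log2 fold change in shoots was below that in roots.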

How the results depend on the processing

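Of 1832 genes called, the number became 1116 after thinning, 4026 with the 8 root libraries alone, 4636 with DESeq2, 6526 with DESeq2 on the root libraries alone, 2976 with limma-voom, 10978 with limma-voom and library weights, 311 at an adjusted p below 0.01, 4183 below 0.1, 1219 with a limit of 1 on the absolute log2 fold change and 4354 without LCR S3 and ConR S11. Leaving out 1 library gave 427 (LCR S4) to 3565 (ConR S11). The percent that rose, 58.79, became 71.34 with DESeq2's size factors in edgeR, 61.49 with upper-quartile scaling, 62.51 with filterByExpr, 70.97 after thinning, 56.31 without the top 100 genes, 63.5 with DESeq2, 66.36 with limma-voom, 54.84 at an adjusted p below 0.1, 70.06 with the limit of 1, 54.89 without both libraries, and 54.06 to 61.36 without 1 library.

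The percent called at 1 CPM or more, 4.636, became 4.87 with upper-quartile scaling, 5.981 with filterByExpr, 5.683 without genes at 0 in 4 or more libraries, 2.934 after thinning, 10.31 with root libraries alone, 11.78 and 16.87 with DESeq2 on all and on root libraries, 6.839 and 24.24 with limma-voom without and with weights, 0.8212 and 10.13 at the thresholds of 0.01 and 0.1, 2.969 with the limit of 1, 11.14 without both libraries, and 1.101 to 9.085 without 1 library. Under 1 CPM it was 0.6359, and 0.396 with no filter, 2.325 with filterByExpr, 1.856 without genes at 0 in 4 or more libraries, 0.2123 after thinning, 1.182 with root libraries alone, 1.527 and 1.622 with DESeq2 on all and on root libraries, 2.308 and 10.33 with limma-voom without and with weights, 0.04506 and 2.288 at the thresholds of 0.01 and 0.1, 1.352 without both libraries, and 0.1125 to 1.15 without 1 library. It was the lower of the 2 shares in each of these settings.

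The listed genes called, 17, became 11 after thinning, 31 with DESeq2 on root libraries, 39 with limma-voom and weights, 8 at 0.01, 24 without both libraries, and 8 to 21 without 1 library. The genes without overlap, 8730, became 21711 without both libraries and 10164 to 15799 without 1, and those with an interaction, 3351, became 5199 with DESeq2, 1973 after thinning and 2417 to 3520 without 1. No named gene changed sign under any alternative. The smallest change called under 0.1 CPM was 4.09 on the log2 scale and the median BCV there was 52.7%, against 19.9% at 10 to 100 CPM, and the part of depth in this was not tested. The causes of these changes were not tested. No paired analysis was possible because the LCR and ConR libraries share no replicate numbers.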
